A study of Mus musculus with 6 samples.

Results

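The imprinted growth regulators are a set of 10 genes, Igf2, H19, Dlk1, Cdkn1c, Peg3, Mest, Plagl1, Grb10, Ndn and Igf2r, whose levels were followed on every array of the study. Probes of the members were found through the transcript accession that the array prints for each probe, without using any measured value. The genes themselves were chosen with earlier results of these data known. Of the 10 genes, 9 had at least 1 probe, giving 16 probes among 39409 probes and 9 genes among 20656 named genes. The H19 accessions in the gene table used here matched no probe, so no value is given for it by name. The array also holds 2 probes of an accession that the table does not list, and whether they belong to H19 could not be settled here.

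The study profiled 1 array for each of 6 groups, all made from cells of E13.5 mouse embryos, with the strain given as ICR in the protocol. The groups were fibroblasts (MEF), primary neurons, and cells described as neurons induced by Tet3 at 1, 3, 5 and 7 days post infection (dpi). Tet3 is an enzyme that oxidises 5-methylcytosine in DNA, the first step in removing the mark. The infected fibroblasts received adenoviral supernatants with polybrene on 2 successive days. Part of their medium was changed to neuronal medium with forskolin on days 3 and 5 after the second infection, and the sources used here do not give whether the cells of 3 and 5 dpi were taken before that change or after it. No group received a virus without Tet3, so infection, Tet3 and medium cannot be told apart. A MEF culture is a mixture of the cells of an embryo that attach to plastic, and in such bulk RNA fewer cells of a type and less RNA per cell cannot be told apart.

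Imprinted genes are expressed mainly from the copy inherited from 1 parent, and methylation laid down in the germ line at nearby control regions marks which copy is active. Many of them set the size of the embryo. In general, paternally expressed members such as Igf2, Dlk1, Mest and Peg3 promote or accompany growth, and maternally expressed members such as Cdkn1c and Igf2r restrain it. Several are high in embryonic mesenchyme and are turned down together as organs mature, and Plagl1 and Peg3 encode zinc finger proteins that bind DNA. These arrays measure total RNA per gene and cannot show which parental copy it came from.

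Levels below are log2 processed signals of a probe minus the 75th percentile of the same array, so 0 is the 75th percentile of all probes. They are compared between arrays for the same probe, never between probes. With 1 array per group there is no replicate, no p-value is possible, and each difference describes a pair of arrays. The scanner software's error model gave about 0.20 for a log2 difference, which covers the array and not the spread between cultures, and a gene is called higher or lower when it was at least 2-fold apart. Precision is limited by how few arrays there are. All 9 members were well above background on all 6 arrays, and none of their spots was saturated.

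The labels were checked on marker genes first. The 18 fibroblast genes were well above background on all 6 arrays. In neurons 17 of them lay at least 2-fold below MEF, where 16.1% of all genes did. The 16 neuronal genes were all well above background on the neuron array. There 15 exceeded MEF at least 2-fold, against 30.3% of all genes. The Tet3 probe with the highest signal read -0.23 in MEF, 1.13 at 1 dpi, 1.73 at 3 dpi, 2.57 at 5 dpi, 0.07 at 7 dpi and -0.72 in neurons. Tet3 probe A_51_P199339 was above background on the arrays of 1, 3 and 5 dpi and not on those of MEF, 7 dpi and neurons. Tet3 probe A_52_P491273 was above background on all 6 arrays and did not follow this course. Its differences from MEF were -0.45, 0.31, 0.35, 0.41 and 0.92 at 1, 3, 5 and 7 dpi and in neurons. None of them passed 2-fold, so the rise at 1, 3 and 5 dpi was not seen with every Tet3 probe. By the brightest probe, Tet3 RNA on the array labelled 7 dpi was close to MEF, and why it was so was not tested. Of the 16 neuronal genes, 14 were at least 2-fold higher than MEF on that array and none was called lower. Of all genes 17.0% were higher there and 6.84% lower. Under median centring 13 of the 16 were higher. The label gives the day after infection and no Tet3 level, and that array is named by its label throughout. The MEF and 1 dpi arrays came from 1 scan and the other 4 arrays from another, so differences of 3, 5 and 7 dpi and neurons from MEF, and of 3 dpi from 1 dpi, cross scans.

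Promoter sequences are shown for 6 members because methylated CpG dinucleotides are the substrate of Tet3 and because these genes contrast in the measurements that follow. Each is the 250 bases before an annotated start, from RefSeq on GRCm38.p6, printed 5′ to 3′ on the strand of the gene with each CpG in capitals. RefSeq windows matched 8 of the 10 members with 14 starts, and for a member with several starts the window with the most CpG was taken. The Dlk1 window (chr12:109452573-109452822, plus strand) and the Peg3 window (chr7:6730420-6730669, minus strand) held 8 CpG each. The Mest window (chr6:30737800-30738049, plus strand) held 14 and the Plagl1 window (chr10:13090582-13090831, plus strand) held 19. The Igf2 window (chr7:142658805-142659054, minus strand) held 22 and the Igf2r window (chr17:12769707-12769956, minus strand) held 27.
Igf2: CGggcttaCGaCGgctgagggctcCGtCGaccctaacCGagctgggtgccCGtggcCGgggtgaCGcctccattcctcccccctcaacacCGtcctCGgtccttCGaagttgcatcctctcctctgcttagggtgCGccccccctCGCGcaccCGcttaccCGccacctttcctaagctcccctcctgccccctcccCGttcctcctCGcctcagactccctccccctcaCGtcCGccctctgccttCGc
Igf2r: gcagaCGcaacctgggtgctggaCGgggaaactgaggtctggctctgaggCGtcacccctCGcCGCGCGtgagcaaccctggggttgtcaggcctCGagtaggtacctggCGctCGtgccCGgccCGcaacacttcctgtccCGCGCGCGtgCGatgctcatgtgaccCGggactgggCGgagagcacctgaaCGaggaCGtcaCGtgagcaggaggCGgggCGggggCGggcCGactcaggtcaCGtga
Dlk1: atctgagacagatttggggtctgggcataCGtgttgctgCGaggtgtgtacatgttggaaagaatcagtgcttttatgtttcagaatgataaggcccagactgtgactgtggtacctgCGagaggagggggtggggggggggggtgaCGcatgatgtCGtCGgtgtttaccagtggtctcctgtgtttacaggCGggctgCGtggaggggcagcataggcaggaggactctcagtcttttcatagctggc
Mest: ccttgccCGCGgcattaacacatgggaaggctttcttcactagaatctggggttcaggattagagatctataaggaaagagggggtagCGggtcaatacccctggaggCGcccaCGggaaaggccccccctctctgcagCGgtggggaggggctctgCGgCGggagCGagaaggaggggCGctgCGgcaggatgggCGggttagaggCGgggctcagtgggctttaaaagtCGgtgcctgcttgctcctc
Plagl1: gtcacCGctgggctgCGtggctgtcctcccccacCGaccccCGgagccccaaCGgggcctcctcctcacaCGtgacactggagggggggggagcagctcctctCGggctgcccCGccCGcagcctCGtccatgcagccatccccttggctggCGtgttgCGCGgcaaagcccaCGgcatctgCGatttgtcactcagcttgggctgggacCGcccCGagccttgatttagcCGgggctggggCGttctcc
Peg3: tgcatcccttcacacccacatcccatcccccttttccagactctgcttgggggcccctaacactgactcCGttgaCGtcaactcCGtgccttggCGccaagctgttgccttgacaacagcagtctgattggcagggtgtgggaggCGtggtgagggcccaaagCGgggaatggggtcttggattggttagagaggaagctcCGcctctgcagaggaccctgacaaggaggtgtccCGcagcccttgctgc

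Over 32851 RefSeq windows of the same length the median was 6 CpG, and 11 of the 14 member windows were above it. As many CpG as in the Dlk1 and Peg3 windows occurred in 43.0% of all windows, and as many as in the Igf2r window in 8.56%. The palindrome GGGGCCCC, searched because it has been reported as a binding consensus of the Plagl1 protein, reads the same on both strands. It was found in 1 of the 14 member windows, that of Peg3, where it begins 201 bases before the start, and in 0.889% of all windows. A match of letters is a description and not a binding site, and the arrays hold no measurement of methylation or binding at these windows.

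Igf2 encodes insulin-like growth factor 2, the main growth factor of the embryo. Its single probe (A_55_P2118173) read 3.11 in MEF, 2.14 at 1 dpi, 2.32 at 3 dpi, 1.46 at 5 dpi, 2.15 at 7 dpi and -2.25 in neurons. MEF was the highest of the 6 arrays and every infected array lay below it, while neurons stood far below all others. The difference from MEF was -0.97 at 1 dpi, -0.79 at 3 dpi, -1.66 at 5 dpi and -0.96 on the array labelled 7 dpi, and only that of 5 dpi passed 2-fold (3.15-fold lower). Under median centring the other 3 passed it too, at -1.04, -1.09 and -1.40. The levels at 3, 7 and 1 dpi, in that order, were within 2 array errors of their neighbours. In neurons Igf2 was 41.1-fold lower than in MEF.

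Igf2r encodes the receptor that takes up IGF2 and carries it to the lysosome, and so removes the growth factor. Its probe (A_51_P125467), printed on the array in 10 spots, read 3.57 in MEF, 3.97 at 1 dpi, 3.78 at 3 dpi, 4.05 at 5 dpi, 3.86 at 7 dpi and 1.26 in neurons. The 5 fibroblast-derived arrays lay within 0.48 of MEF, and the neuron array was alone at the bottom, 4.99-fold below MEF. The small differences above MEF at 3 dpi (0.21) and 7 dpi (0.29) changed sign when arrays were centred on their median (-0.09 and -0.15), so no direction is given for them. Replicate spots of this probe and of the Mest probe A_51_P124535 differed by an SD of 0.032 to 0.101 on the log2 scale.

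Grb10 encodes an adaptor that binds the insulin and IGF1 receptors and dampens their signal. Its probe (A_55_P1955457) read -1.12 in MEF, -1.35 at 1 dpi, -1.04 at 3 dpi, -1.09 at 5 dpi, -1.24 at 7 dpi and -4.62 in neurons. The first 5 arrays could not be ordered within 2 array errors between neighbours. The differences of 3 dpi (0.08) and 5 dpi (0.03) from MEF turned negative under median centring. In neurons the gene was 11.3-fold lower than in MEF.

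Dlk1 encodes a transmembrane and secreted protein related to the Notch ligands that holds mesenchymal precursors, such as preadipocytes, in an undifferentiated state. Its brighter probe (A_66_P117477) read 6.13 in MEF, 5.66 at 1 dpi, 3.65 at 3 dpi, 3.93 at 5 dpi, 5.99 at 7 dpi and -2.34 in neurons. The infected arrays fell into separate pairs, with 3 and 5 dpi low and 1 and 7 dpi near MEF. Dlk1 was 5.60-fold lower than MEF at 3 dpi, 4.58-fold lower at 5 dpi, and only 0.14 below MEF on the log2 scale on the array labelled 7 dpi. From 5 dpi to the array labelled 7 dpi, within 1 scan, it was 4.15-fold higher. In neurons it was 354-fold lower than in MEF, the largest difference of any member. The second probe (A_55_P2105371) gave -0.80, -2.92, -2.90, -0.29 and -8.82 for the same 5 differences from MEF, with the arrays in the same order and 3 and 5 dpi almost equal.

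Mest, also called Peg1, encodes a membrane enzyme of the alpha/beta hydrolase fold that is abundant in embryonic mesoderm. Its brightest probe read 5.25 in MEF, 4.21 at 1 dpi, 3.84 at 3 dpi, 3.48 at 5 dpi, 4.81 at 7 dpi and 2.37 in neurons. The level was lower on each of the first 3 infected arrays than on MEF and was nearer to MEF on the array labelled 7 dpi. The differences from MEF were -1.04, -1.41 and -1.77 at 1, 3 and 5 dpi, -0.44 on the array labelled 7 dpi and -2.88 in neurons. The neighbouring arrays 1 and 3 dpi, and 3 and 5 dpi, differed by less than 2 array errors. Mest was the only member at least 2-fold lower at 1 dpi, and that call was lost with the mean over its 3 probes (-0.90), the others giving -0.90 and -0.75. From 5 dpi to the array labelled 7 dpi the 3 probes were higher by 1.33, 1.39 and 1.41.

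Cdkn1c encodes p57Kip2, an inhibitor of cyclin-dependent kinases that stops the cell cycle. Its probe (A_51_P339540) read 5.41 in MEF, 5.18 at 1 dpi, 2.12 at 3 dpi, 4.40 at 5 dpi, 4.60 at 7 dpi and -0.37 in neurons. The array of 3 dpi stands apart from the other infected arrays. Cdkn1c was 9.79-fold lower than MEF at 3 dpi, 2.01-fold lower at 5 dpi and -0.82 from MEF on the array labelled 7 dpi. It was 8.31-fold lower at 3 dpi than at 1 dpi, across scans, and 4.86-fold higher at 5 dpi than at 3 dpi, within 1 scan. In neurons it was 55.3-fold lower than in MEF.

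Plagl1, also called Zac1, encodes a zinc finger protein that arrests growth and regulates other imprinted genes. Its brightest probe (A_55_P1961968) read 6.61 in MEF, 6.16 at 1 dpi, 4.70 at 3 dpi, 5.31 at 5 dpi, 6.47 at 7 dpi and 4.16 in neurons. As for Dlk1, the arrays of 3 and 5 dpi were low and those of 1 and 7 dpi were near MEF. Plagl1 was 3.76-fold lower than MEF at 3 dpi, 2.46-fold lower at 5 dpi and 5.46-fold lower in neurons.

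The 4 Plagl1 probes did not all give this pattern. Probe A_52_P532456 gave differences from MEF of -0.35, -1.93, -1.26, -0.18 and -2.34, close to those of the brightest probe (-0.45, -1.91, -1.30, -0.13 and -2.45). Probe A_55_P2153251 gave -0.99, -1.73, -1.31, -0.32 and -1.23. Probe A_55_P1961965 gave -0.35, -0.35, -0.45 and 0.32 for the infected arrays and 0.77 in neurons, where the other 3 were lower than MEF. The position of each probe within the transcripts was not analysed here. The neuron difference of Plagl1 is thus a property of 3 of its 4 probes.

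Peg3 encodes a large zinc finger protein linked to growth, cell death and maternal behaviour. Its brighter probe (A_52_P235861) read -0.64 in MEF, -0.79 at 1 dpi, -1.27 at 3 dpi, -0.24 at 5 dpi, 0.27 at 7 dpi and -1.64 in neurons. Among the infected arrays it was the only member on both sides of MEF by more than 2 array errors, lowest there at 3 dpi (-0.63 from MEF) and highest on the array labelled 7 dpi (0.92), neither past 2-fold. From 3 to 5 dpi, within 1 scan, it was 2.05-fold higher, and the mean over its 2 probes put that difference at 0.87 and below 2-fold. The second probe (A_55_P2163319) gave -0.10, -0.48, 0.23, 0.92 and -1.27 for the differences from MEF.

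Ndn encodes necdin, a protein of the MAGE family that restrains the cell cycle and is abundant in post-mitotic neurons. Its probe (A_52_P451644) read 1.43 in MEF, 1.71 at 1 dpi, 1.11 at 3 dpi, 0.59 at 5 dpi, 1.71 at 7 dpi and 1.17 in neurons. Its total range over the 6 arrays was 1.12, the smallest of the members, and it was within 2-fold of MEF on every array. Under median centring it passed 2-fold at 5 dpi (-1.25) and in neurons (-1.06). The array of 5 dpi was the lowest, and from there to the array labelled 7 dpi Ndn was 2.17-fold higher. Its difference of 0.28 from MEF on the array labelled 7 dpi became -0.16 under median centring.

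**Figure D1:**
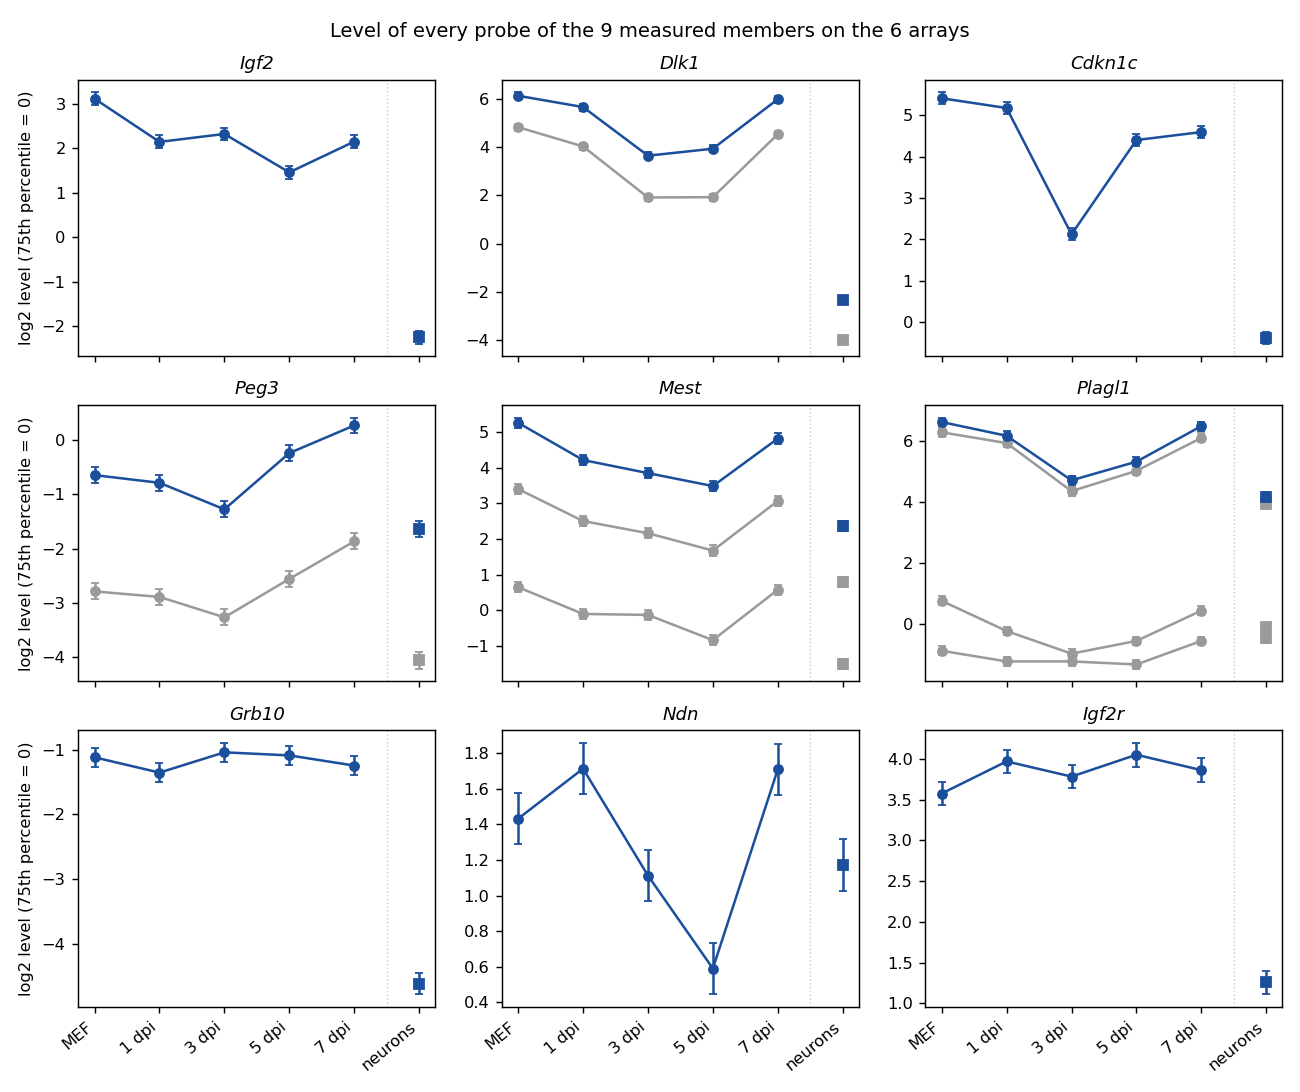
Log2 level of every probe of the 9 measured members (75th percentile of each array at 0, each panel with its own axis) on the 6 arrays, with bars of 1 array error; blue is the probe that stands for the gene, grey the other probes, and squares the neuron array. Dlk1 and Plagl1 dip at 3 and 5 dpi, Cdkn1c dips at 3 dpi, and Igf2, Dlk1, Cdkn1c, Grb10 and Igf2r are far lower in neurons than on any other array.

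Set against MEF, the members were mostly level or lower, and no member was at least 2-fold higher in any of the 5 groups. At 1 dpi 1 of 9 members was called lower, where 5.97% of all 16790 genes tested were. At 3 dpi the number was 4 of 9 (Dlk1, Cdkn1c, Mest and Plagl1), against 9.83% of all genes. At 5 dpi it was 5 of 9, with Igf2 added, against 8.22% of all genes. On the array labelled 7 dpi it was 0 of 9, against 6.84% of all genes. In neurons it was 7 of 9, all but Peg3 and Ndn, against 16.1% of all genes. Peg3 was called lower there under quantile normalization (-1.36), and both were under median centring (-1.79 and -1.06). The shares of all genes called higher were 5.38%, 16.3%, 17.9%, 17.0% and 30.3% in the same order. Because the members were chosen with earlier results of these data known, their counts beside these shares are a description only.

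The median difference of the 9 members from MEF was -0.24, -0.79, -1.01, -0.13 and -2.88 for 1, 3, 5 and 7 dpi and neurons. Over all genes tested the medians were 0.07, 0.20, 0.20, 0.16 and 0.26. The median of genes measured on both arrays was 0.15 at 3 dpi, 0.15 at 5 dpi and 0.14 at 7 dpi. Relative to that median, 2, 4, 5, 1 and 8 members were at least 2-fold lower in the 5 comparisons. Scaling moved the split over all genes: with quantile normalization 11.9% of genes were lower and 8.83% higher at 3 dpi, 10.8% and 9.16% at 5 dpi, 8.57% and 8.03% at 7 dpi, and 21.5% and 18.4% in neurons. With median centring the shares were 14.5% lower and 9.93% higher at 3 dpi, 14.7% and 9.81% at 5 dpi, 12.2% and 8.80% at 7 dpi, and 37.5% and 16.2% in neurons. Under both scalings no member was called higher, and under median centring 2, 5, 6, 2 and 9 members were called lower in the 5 comparisons. All 5 comparisons use the same MEF array, so they are not independent of each other.

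**Figure D2:**
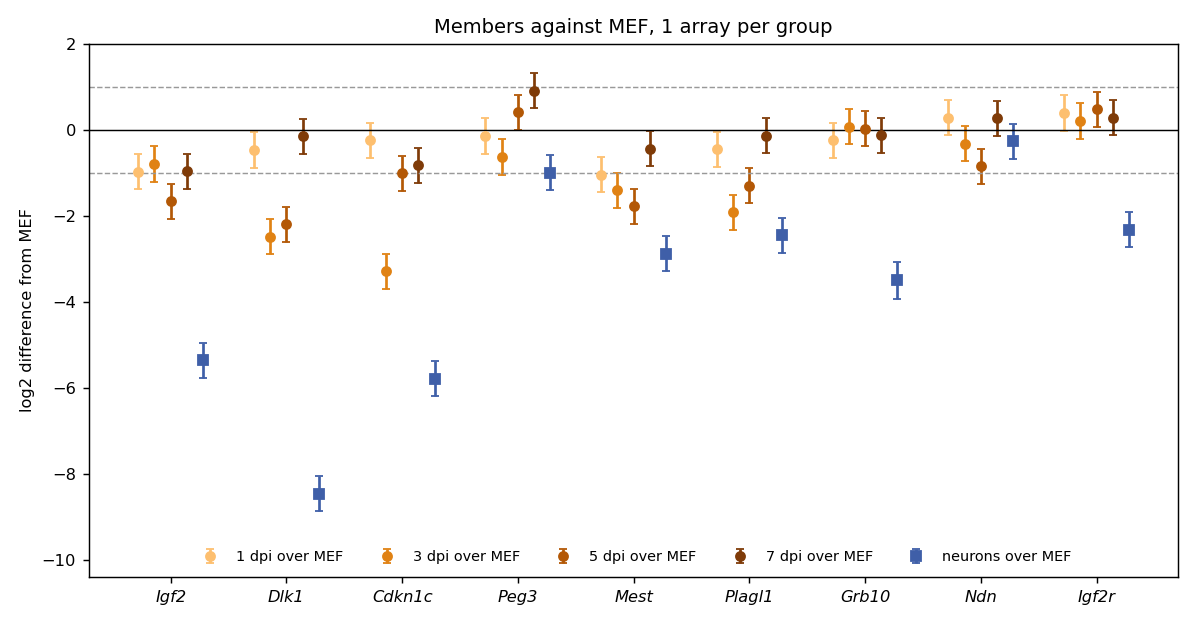
Log2 difference from MEF of the 9 measured members (vertical axis) for the 4 infected arrays (circles) and the neuron array (squares), with bars of 2 array errors and dashed lines at 2-fold. No point lies above the upper dashed line, and 7 of the 9 neuron points lie below the lower one.

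The steps between arrays show where the members moved along the course. From 1 to 3 dpi, 3 of 9 members were at least 2-fold lower (Dlk1 by -2.02, Cdkn1c by -3.06 and Plagl1 by -1.46 on the log2 scale) and none higher, with 5.13% of all genes called lower and 7.73% higher. Under quantile normalization 6.86% were lower and 3.63% higher, and under median centring 7.55% and 4.26%. This step crosses scans, and the Plagl1 difference was -0.95 as the mean over its probes. From 3 to 5 dpi, 2 members were called higher (Cdkn1c and Peg3), with 8.10% of all genes higher and 4.53% lower. From 5 dpi to the array labelled 7 dpi, 4 members were called higher (Dlk1, Mest, Plagl1 and Ndn) and none lower, with 5.87% of all genes called higher and 4.72% lower. The last 2 steps lie within 1 scan. Their median over the members was 0.27 and 0.69, and over all genes it was 0.00 and -0.01.

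On the array labelled 7 dpi the members were set apart from the neurons it is compared with. Of the 9 members 8 were at least 2-fold higher there than in primary neurons, in the same scan, where 13.9% of all genes were higher and 19.6% lower. That split was 17.8% and 17.3% under quantile normalization and 22.3% and 14.7% under median centring, with 8 members called under each. Dlk1 was 321-fold higher, Cdkn1c 31.3-fold, Igf2 21.1-fold, Grb10 10.3-fold and Igf2r 6.08-fold higher. Ndn, the exception, differed by 0.54.

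Neighbours in the same imprinted cluster did not all follow the member. Meg3, the maternally expressed noncoding RNA beside Dlk1, differed from MEF by -0.42, -1.20, -0.55, 0.30 and -1.85 at 1, 3, 5 and 7 dpi and in neurons, low at 3 dpi and in neurons like Dlk1 with smaller sizes. Mirg, of the same cluster, differed by 0.02, -0.55, -0.08, 0.73 and -1.55. The paternally expressed Rtl1 was not above background at 1 dpi. In MEF it read -6.15, near the lowest level well above background on that array (-6.60). From 3 dpi onwards Rtl1 differed from MEF by -0.32, 0.92, 1.68 and 0.37, and Dio3 stayed within 0.81 of MEF.

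Around Peg3, Usp29 and Zim1 went apart. Usp29, which shares the promoter region of Peg3, read -4.66 in MEF, -5.71 at 1 dpi, -5.44 at 3 dpi, -4.85 at 5 dpi, -2.54 at 7 dpi and -0.43 in neurons, where it was 4.23 above MEF while Peg3 was 0.99 below. Zim1, maternally expressed, differed from MEF by -1.39, -2.29, -1.24, -0.13 and -2.41. Klf14, a maternally expressed transcription factor gene near Mest, was lower than MEF on all 5 arrays, by -1.88, -2.99, -3.24, -2.61 and -3.24. Mest differed from MEF by -0.44 on the array labelled 7 dpi, where Klf14 still differed by -2.61.

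In the Ndn cluster, Snrpn differed from MEF by 0.70, 1.11, 0.80, 1.68 and 3.23, and Mkrn3 by -0.13, 0.32, 1.05, 0.97 and 2.54, both highest in neurons, where Ndn differed by -0.26. Magel2 and Peg12 were within 2-fold of MEF on all arrays, as was Ube3a. Atp10a was 1.01 and 1.77 above MEF at 1 and 3 dpi and within 0.19 afterwards.

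Near Igf2 and Cdkn1c, Phlda2, a maternally expressed placental growth restrainer, was above background only at 1, 3 and 5 dpi, where its lower bounds over MEF were 1.53, 1.68 and 2.50. Slc22a18 was 1.52 above MEF at 1 dpi and within 0.24 on the other arrays. Ascl2 was -1.34 from MEF at 3 dpi. Kcnq1ot1, Tssc4 and Osbpl5 were within 2-fold of MEF on all arrays. Airn, the antisense transcript that silences the paternal Igf2r, was within 0.91 of MEF on all arrays, and Slc22a3 was not well above background on any array. The array's probes for antisense transcripts were taken by their printed accession. Cobl, next to Grb10, was between -0.97 and 0.58 from MEF.

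Over the whole list of other paternally expressed genes, in neurons 7 of 18 exceeded MEF at least 2-fold and none lay 2-fold below it. Of all genes 30.3% were higher there and 16.1% lower, so the count called higher was not far from that share. Under quantile normalization 8 of the list were higher and 3 lower, and under median centring 6 and 3. Nnat, a small proteolipid of the developing brain, was 5.61 above MEF in neurons and 2.57 above on the array labelled 7 dpi. Nap1l5 was 2.38 above MEF in neurons and -1.80 from it at 3 dpi. Peg10, derived from a retrotransposon, read -4.90 in MEF, -4.44 at 1 dpi, -3.49 at 3 dpi, -0.83 at 5 dpi, -2.16 at 7 dpi and -2.64 in neurons, with its highest value at 5 dpi, 4.07 above MEF. At 1, 3, 5 and 7 dpi, 5.38%, 16.3%, 17.9% and 17.0% of all genes were higher and 5.97%, 9.83%, 8.22% and 6.84% lower. The paternally expressed list counted 1, 3, 4 and 5 genes higher and 1, 1, 0 and 0 lower in that order. Under quantile normalization 3 dpi gave 1 higher and 3 lower and 5 dpi gave 1 higher, and under median centring 3 dpi gave 2 and 3 and 5 dpi gave 2 higher. Of the maternally expressed list, 3 were higher and 4 lower in neurons of 16 tested, against 0 and 5 under quantile normalization and 1 and 7 under median centring. Asb4 was 2.51, 2.29 and 3.07 above MEF at 3, 5 and 7 dpi, and Slc22a2 was at least 2.09 above it in neurons.

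The other genes of the IGF pathway moved in both directions. Of 23 genes, 1, 4, 4, 3 and 3 were at least 2-fold higher than MEF at 1, 3, 5 and 7 dpi and in neurons. Those lower were 6, 8, 8, 4 and 13. In the same order, 5.38%, 16.3%, 17.9%, 17.0% and 30.3% of all genes were higher and 5.97%, 9.83%, 8.22%, 6.84% and 16.1% lower. The counts called higher lay near or below these shares, and those called lower lay above them. Igf1, the second ligand of the pathway, read 5.19 in MEF, 3.98 at 1 dpi, 1.45 at 3 dpi, 2.37 at 5 dpi, 3.11 at 7 dpi and -1.54 in neurons. It was lower than MEF on every other array and lowest among the infected arrays at 3 dpi (13.3-fold). Pappa2, a protease that frees IGF from its binding proteins, read 1.96 in MEF, -0.24 at 1 dpi, -3.35 at 3 dpi, 1.46 at 5 dpi, 1.79 at 7 dpi and -5.20 in neurons. It was lowest among the infected arrays at 3 dpi, 39.7-fold below MEF. Igfbp2, an IGF-binding protein, was -1.51, -2.80, -3.40 and -3.09 from MEF at 1, 3, 5 and 7 dpi and 1.16 above it in neurons. Igfbp6, which binds IGF2 in preference to IGF1, was within 0.11 of MEF at 1 and 3 dpi, -1.32 at 5 dpi, 0.84 at 7 dpi and -5.20 in neurons. Igf1r, the receptor through which both ligands signal, was within 0.33 of MEF on all arrays.

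Other cyclin-dependent kinase inhibitors lay on both sides of MEF at 3 dpi, where Cdkn1c was lower than on the other infected arrays. Cdkn1a, which encodes p21, was 1.62, 2.12, 2.29 and 1.12 above MEF at 1, 3, 5 and 7 dpi. Cdkn2a was 2.18, 1.09, 2.05 and 2.07 above and Cdkn2b 1.73, 2.49, 1.71 and 1.69 above, while Cdkn1b, which encodes p27, was -1.15 from MEF at 3 dpi. Of the 8 genes in this list, 3, 3, 3, 3 and 0 were called higher and 1, 2, 1, 1 and 3 lower, in the usual order of comparisons. The shares of all genes for these comparisons are those given beside the IGF pathway counts. Plag1, related to Plagl1, was within 0.44 of MEF on the infected arrays and -1.49 in neurons. Of 24 cell cycle genes, 18 were at least 2-fold higher than MEF at 3 dpi and none lower, with a median of 1.64. Plk1, Bub1b and Ube2c were 1.89, 1.75 and 2.35 above MEF there, and Cenpa 0.28. At 5 dpi 14 were called higher and at 7 dpi 13, where median centring left 0. In neurons 1 was called higher and 2 lower, and under median centring 0 and 8.

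Of 14 genes that maintain or erase imprints, 13 could be tested and few were called. Dnmt3a, a de novo DNA methyltransferase, was -0.99, -2.60 and -1.53 from MEF at 1, 3 and 5 dpi and 0.16 above it at 7 dpi. Uhrf1, which guides the maintenance methyltransferase and is made in cycling cells, was 1.58 above MEF at 3 dpi and within 0.47 on the other infected arrays. Nlrp2 was 1.31 and 1.55 above MEF at 3 and 7 dpi. Dppa3 was not well above background on any array. The list counted 0, 2, 0, 1 and 2 genes higher and 0, 1, 1, 0 and 0 lower, beside the shares of all genes given for the IGF pathway. Under median centring it counted 2 higher and 3 lower at 3 dpi and 1 higher and 3 lower in neurons.

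**Figure D3:**
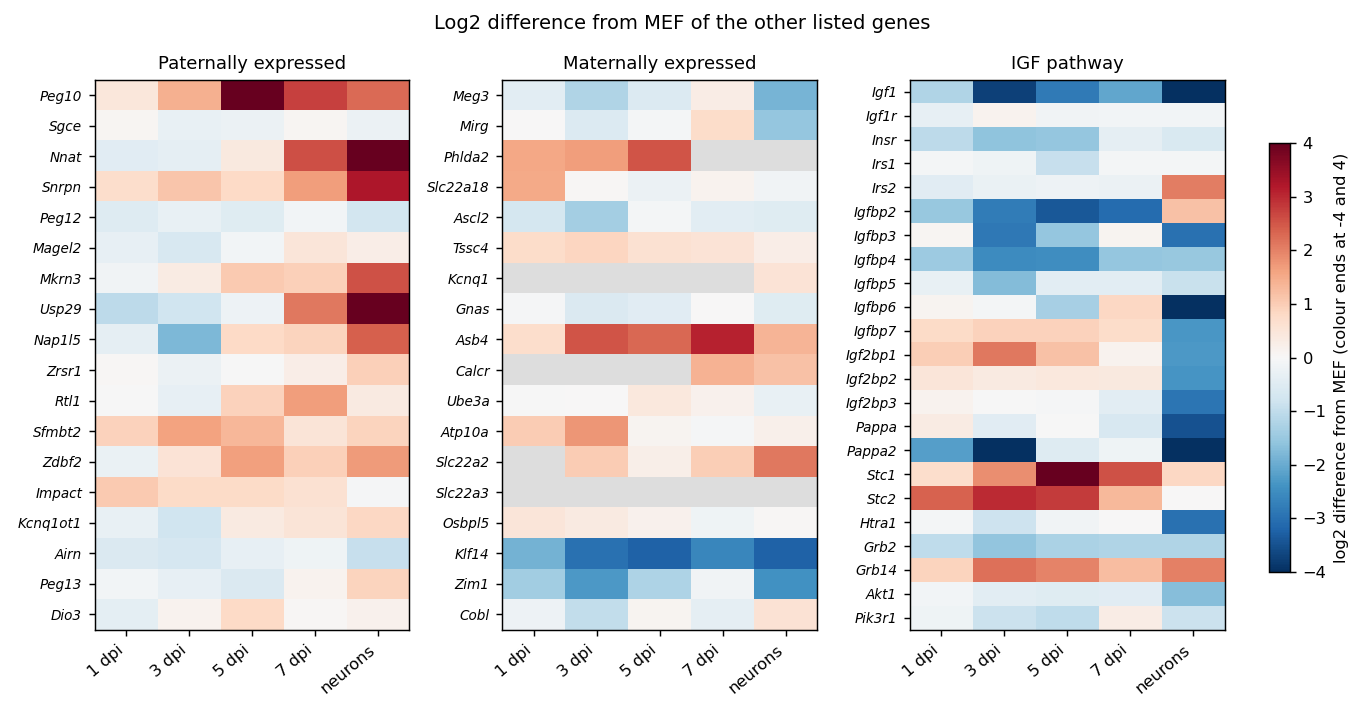
Log2 difference from MEF (colour, blue lower and red higher, ending at -4 and 4) of other paternally expressed and maternally expressed imprinted genes and of IGF pathway genes, for the 4 infected arrays and neurons; grey marks genes not well above background on either array, and a value against an array below background is a bound. Nnat, Usp29 and Snrpn are reddest in neurons, while Igf1 is blue in every column and Pappa2 is bluest at 3 dpi and in neurons.

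Genes with the most similar course were sought for each member among genes well above background on all 6 arrays. The measure was Pearson's r of log2 levels over 6 arrays, which share their scaling, and the neuron array dominates it for most members, so r over the other 5 arrays is given too. Dlk1 was most like Cped1 (r = 0.998, and 0.986 without neurons), Vegfd (0.998 and 0.993) and Svep1 (0.998 and 0.992). Igf2 was most like Gsdmd (0.996 and 0.991), Aldh2 (0.992 and 0.897) and Tep1 (0.991 and 0.943).

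Cdkn1c was most like Sema3d (0.993 and 0.973), Gas1 (0.990 and 0.982) and Sfrp4 (0.988 and 0.962). Mest was most like Pth1r (0.996 and 0.991), Il6st (0.990 and 0.997) and Prkd3 (0.989 and 0.994). Plagl1 was most like Nxnl2, Eif4e3 and Phyhd1, Peg3 like Tmem176a, Saa3 and Nlrp5, and Ndn like Snrk, Apod and Slc12a2. Igf2r was most like the fibronectin gene Fn1 (0.9998 and 0.993), Hoxc6 and Twist2. For Grb10 the likeness to Oas1f (0.999 and 0.822), Oas1a (0.998 and 0.646) and Zfp503 (0.997 and 0.539) rested mainly on the neuron array.

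Among the members themselves, Dlk1 and Plagl1 had r = 0.883 over 6 arrays and 0.982 without neurons. Dlk1 and Mest had 0.918 and 0.883. Igf2 and Igf2r had 0.909 over 6 arrays and -0.957 over the other 5, although neighbouring Igf2r levels among those 5 arrays lay within 2 array errors of each other. These are 3 of 36 pairs, chosen after their values were seen, and are given as a description.

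Markers of other cell types also differed between the arrays. The summed signal of the 9 members, with the 75th percentile of each array at 1, was 273 in MEF, 201 at 1 dpi, 79.0 at 3 dpi, 109 at 5 dpi, 228 at 7 dpi and 29.2 in neurons. The fibroblast list summed to 694, 832, 617, 715, 814 and 47.3 in the same order. A sum is carried mostly by the brightest probes of its list, so the ranges of different lists are not compared. Single fibroblast genes differed at 3 dpi, where Lum was -2.19, Pdgfra -1.64 and Fap -2.02 from MEF. Fbln2 was 0.20 and S100a4 3.66 above it. Of the 18, 5 were called lower there and 2 higher, where 9.83% of all genes were lower and 16.3% higher. At 5 dpi none of the 18 was called in either direction (2 lower under median centring), while 5 of 9 members were lower (6 under median centring).

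The macrophage list, 14 genes all well above background in MEF, summed to 290 in MEF, 43.6 at 1 dpi, 14.7 at 3 dpi, 2.75 at 5 dpi, 2.42 at 7 dpi and 2.75 in neurons. Of its 14 genes 13, 13, 14, 14 and 14 were called lower than MEF in the 5 comparisons. Of all genes 5.97%, 9.83%, 8.22%, 6.84% and 16.1% were. C1qa and C1qc were -4.30 and -4.79 from MEF at 3 dpi, and Mrc1 and Stab1 were not above background on the array labelled 7 dpi. The list was lowest on the array labelled 7 dpi, with nearly the same sums at 5 dpi and in neurons. The muscle list summed to 4.82 in MEF, to 15.6, 18.5, 23.5 and 21.4 on the infected arrays and to 6.34 in neurons. The adipocyte list, which holds fat cell genes such as Fabp4, Lpl and Cd36, summed to 29.0, 13.4, 3.09, 18.8, 39.2 and 3.64, lowest among fibroblast-derived arrays at 3 dpi. The choroid plexus and meninges list summed to 18.8, 10.9, 5.05, 7.32, 21.8 and 25.3. Of its 12 genes, 8 were called higher than MEF in neurons and 4 lower, where 30.3% of all genes were higher and 16.1% lower. Ttr, a defining choroid plexus gene, was well above background in neurons alone, at least 10.76 above MEF. The cartilage list ranged from 4.05 to 10.9 and the endothelial list from 2.97 to 5.06, and the erythroid list did not pass 0.53. The part of these cell types in the members' levels was not tested.

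**Figure D4:**
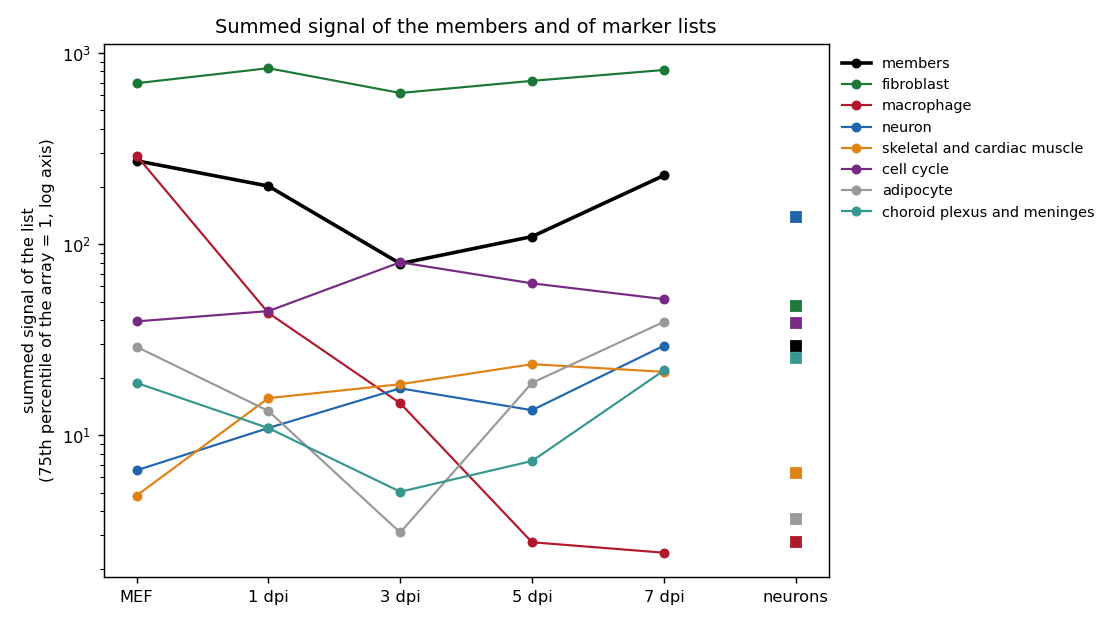
Summed signal of the members and of marker lists on the 6 arrays (log axis, 75th percentile of each array at 1; squares mark the neuron array). The members sum to 273 in MEF, 79.0 at 3 dpi and 228 on the array labelled 7 dpi. The macrophage list sums to 290 in MEF and 2.42 on the array labelled 7 dpi. The ranges of different lists are not compared.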

How the data were processed

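RNA of 6 samples was labelled with Cy3 and hybridised to 1 single-colour Agilent array each. The deposited scanner files hold background-corrected spot intensity values which, per the submitters' processing notes, came from Agilent Feature Extraction 11.0.1.1. The authors' deposited series table holds log2 values with the 75th percentile of each array at 0, found by comparison with the scanner files (r of at least 0.99998, and member probes within 0.0055), and the sources used here do not give the step that made it. Neuron intensities were deposited with 3 significant digits. From the processed signals, log2 means over the spots of a probe, without outlier spots, were scaled to each array's 75th percentile (Python 3.11.15, numpy 2.4.6, pandas 2.3.3). Probes were named through their accession and the RefSeq gene table (69.1% of 39409 probes). The probe with the highest mean level stands for a gene. A difference is measured where both arrays are well above background and a bound where 1 is. For a bound the dim array takes the probe's own level or the array's lowest well-above-background level, whichever is higher. Of each other list up to 4 genes, from those of largest range, and of imprinted genes the cluster neighbours, are named, and Igf1r, Cdkn1b and S100a4 were added after their values were seen. Alternatives were quantile normalization, median centring, normexp (limma 3.58.1, offset 50, on median signals), other filters, the mean over probes, the authors' table and a 4-fold threshold; centring on all measured genes was added after the data were seen. The calling was tested on data simulated from MEF levels with noise of the array error. Shifts beyond 2-fold were added to genes above the 75th percentile. That simulation holds no spread between cultures or scans, so it cannot show how reliable the calls between these arrays are. Members and lists were chosen with earlier results of these data known.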

Additional observations from a re-analysis of the deposited data

Results flagged for a closer look

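Peg3 lay on opposite sides of MEF at different times by more than 2 array errors, at -0.63 at 3 dpi and 0.92 on the array labelled 7 dpi, and the difference between the times was not tested because each has 1 array. A pair of probes that share an array accession absent from the gene table used here have no gene name, and whether they measure H19, the member without a named probe, could not be settled. They were well above background and are used in no comparison of the report. Probe A_55_P1961127 differed from MEF by -0.37, -0.76, -1.13 and -0.26 at 1, 3, 5 and 7 dpi and by -5.79 in neurons. Probe A_55_P1961125 differed by -0.52, -0.11, -0.73, -0.16 and -1.06 in the same order.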

How the results depend on the processing

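Over 8 alternatives, none of the 34 member differences of at least 2-fold changed sign, and 3 were below 2-fold under at least 1 of them (Mest at 1 dpi, Peg3 from 3 to 5 dpi and Plagl1 from 1 to 3 dpi). Another 7 differences passed 2-fold under an alternative, in each case under median centring (Igf2 at 1, 3 and 7 dpi, Cdkn1c at 7 dpi, Ndn at 5 dpi and in neurons, and Peg3 in neurons). Of 648 alternative values, 562 stayed within the array error, and many of these could not have moved. The filters on dim probes leave every member unchanged, since all were well above background on every array. The mean over probes leaves members with 1 probe unchanged, and the authors' table has the same scaling as the report. For 1 dpi over MEF the count of members (1 in the report) was 2 with median centring, 2 when centred on all measured genes, 0 with the mean over probes and 0 at 4-fold. For 7 dpi over MEF (0) it was 2 with median centring and 1 when centred on all measured genes. From 3 to 5 dpi (2) it was 1 with quantile normalization, median centring, normexp, the mean over probes and 4-fold. At 4-fold it was 2 for 3 dpi over MEF, 1 for 5 dpi over MEF and 1 for 7 dpi over 5 dpi. With both arrays required above background, 22 of 144 list medians moved by more than the array error and none past 2-fold changed sign. The cause of these shifts was not tested. No paired analysis was possible because each group has 1 array, which also leaves no replicate to leave out. The array error covers signal over background and not the spread between cultures.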
